A study of Mus musculus with 4 samples.

Results

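Chief cells sit at the base of the glands of the stomach corpus and secrete digestive proenzymes (zymogens) from large granules. In the mouse they also release intrinsic factor, the protein that carries vitamin B12 (cobalamin) to its receptor in the ileum. The genes described here are 6 that mark this programme. Cblif (older symbol Gif) encodes intrinsic factor. Pga5 and Pgc encode pepsinogens, aspartic proteases that are activated by gastric acid. Bhlha15 (also called Mist1) encodes a basic helix-loop-helix transcription factor of zymogen-secreting cells, including those of the exocrine pancreas. Rnase1 encodes a secreted ribonuclease that is also a major product of the pancreas, and Cpa6 encodes a metallocarboxypeptidase made as a proenzyme. They were chosen by name, as the probes annotated with exactly 1 gene symbol and that symbol among the 6. A probe was found for 5 of the 6 genes, among 13840 genes so annotated on an array of 33012 probes. Pgc had no such probe and was not analysed here. Of the 5, 4 (Cblif, Pga5, Bhlha15 and Rnase1) had a value on all arrays and belong to the 13475 probes compared, while Cpa6 had a value on 3 of 4 arrays.

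The stomachs came from male B6.CAST-17 mice, a homozygous congenic strain named for CAST-derived chromosome 17 material placed on the B6 background, and from male wild-type C57BL/6J mice. All animals ate chow and had been food deprived for 4 h, and their ages are not stated in the labels. Each strain was measured on 2 single-colour arrays, and each array held RNA pooled in equal amounts from 3 animals, so 6 animals per strain were used. The spread described is therefore between pools and not between single animals, and the labels do not say how much of the chromosome is CAST-derived. RNA of the whole stomach was used, so a change in chief cell number and in transcript per chief cell cannot be told apart.

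Values are the deposited signals on a log2 scale, and every difference is B6.CAST-17 minus wild type. Arrays had a value for between 49.4% and 51.4% of probes, and pools of the same strain correlated across the compared probes with Pearson's r of 0.991 (B6.CAST-17) and 0.988 (wild type). Over all compared probes, 64 (0.475%) differed between the strains at a limma adjusted p under 0.05, of which 39 (0.289% of the probes) were higher and 25 (0.186%) lower in B6.CAST-17. A difference above 0, of any size, was found for 49.6%. The number of arrays limits the precision, since an exact two-sided permutation test of 2 pools against 2 cannot give a p below 0.333. Each probe has its own response, so signals of different probes are not read as relative transcript amounts. Ranks and sums over probes are given to compare arrays.

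None of the 5 genes measured lies on chromosome 17. Cblif and Pga5 are genes of chromosome 19, Bhlha15 of chromosome 5, Rnase1 of chromosome 14 and Cpa6 of chromosome 1. Pgc is the only one of the 6 on chromosome 17, the chromosome named in the congenic strain. As Bhlha15 is a helix-loop-helix factor, a protein class that binds E-boxes (the letters CANNTG, where N is any base), the 250 bases before the transcription start are printed for the 3 genes compared that have a RefSeq promoter entry (build GRCm38.p6). Each runs 5′ to 3′ on the gene's strand, with every E-box in capitals.
Cblif, chr19:11747309-11747558, plus strand: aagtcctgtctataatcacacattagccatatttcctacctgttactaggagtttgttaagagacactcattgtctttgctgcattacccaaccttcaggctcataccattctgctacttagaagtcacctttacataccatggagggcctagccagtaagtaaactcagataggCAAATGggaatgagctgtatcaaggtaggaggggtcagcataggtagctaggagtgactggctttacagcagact
Bhlha15, chr5:144190036-144190285, plus strand: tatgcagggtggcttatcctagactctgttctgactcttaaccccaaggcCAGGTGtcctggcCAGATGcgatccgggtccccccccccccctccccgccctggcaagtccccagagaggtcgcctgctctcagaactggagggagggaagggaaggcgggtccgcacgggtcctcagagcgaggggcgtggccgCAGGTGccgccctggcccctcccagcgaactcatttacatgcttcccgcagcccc
Rnase1, chr14:51146768-51147017, minus strand: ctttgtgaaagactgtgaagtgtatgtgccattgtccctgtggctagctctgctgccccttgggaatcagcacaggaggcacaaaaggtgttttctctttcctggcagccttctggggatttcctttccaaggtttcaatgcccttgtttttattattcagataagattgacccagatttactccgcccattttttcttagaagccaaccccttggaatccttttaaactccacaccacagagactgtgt
Bhlha15's own promoter window held 3 E-boxes, Cblif's held 1 and Rnase1's held 0. CANNTG is its own reverse complement, so both strands were covered, and 66.2% of 32851 mouse promoter windows of this length held at least 1. CATATG, an E-box form bound by Mist1, was in 0 of the 3 windows and in 3.46% of all windows. These are letter matches only. They say nothing of binding, and the array data hold no measure of it.

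All 4 genes compared had higher signal in both congenic pools than in both wild-type pools, and none passed the test. That ordering, higher with no overlap, held for 23.4% of all compared probes. The 4 differences ran from 0.24 to 0.64 with a median of 0.45, beside a median of -0.002 over all compared probes. At an adjusted p under 0.05 the count was 0 of 4. At an unadjusted p under 0.05 it was 2 of 4, Bhlha15 and Rnase1, beside 15.8% of all compared probes in either direction and 7.12% higher.

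**Figure D1:**
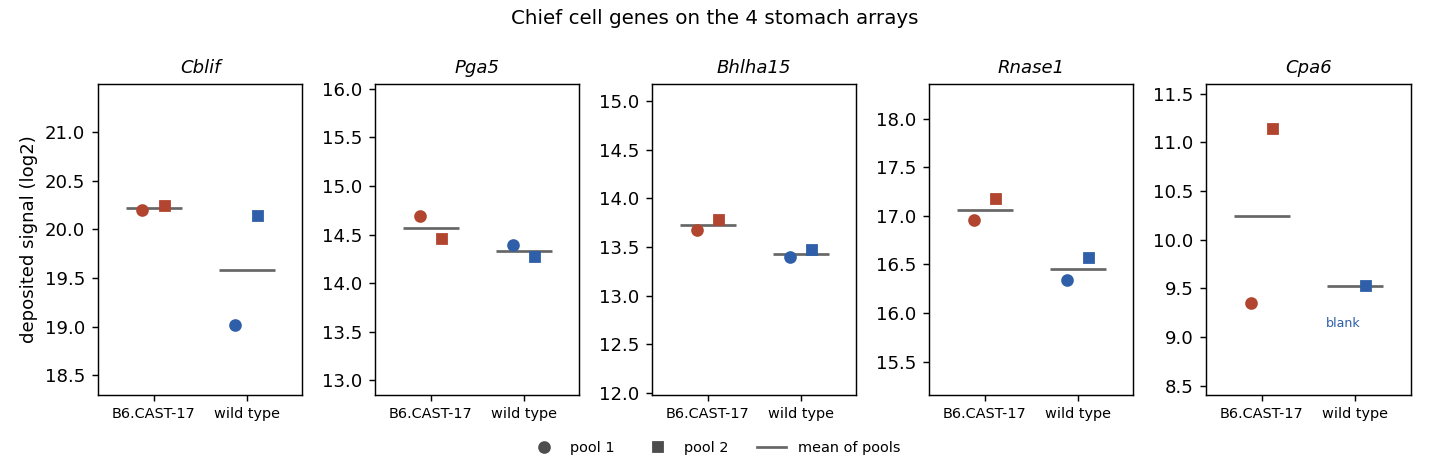
Deposited log2 signal (vertical axis, the same span of 3.2 log2 in each panel) of the 5 genes in the pools of B6.CAST-17 (red) and wild-type (blue) stomachs, with circles for pool 1, squares for pool 2 and a line at the mean of the pools. Cblif in wild-type pool 1 (19.02) lies below the other 3 points, Rnase1 separates the strains with the widest gap, and Cpa6 is blank in wild-type pool 1.

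Cblif, the first of the secreted products, read near the top of every array's range, with a signal of 20.20 and 20.24 in B6.CAST-17 pools 1 and 2, against 19.02 and 20.14 in wild-type pools 1 and 2. Wild-type pool 1 alone was low, and the lowest congenic pool exceeded wild-type pool 2 by only 0.057 log2. The mean was 20.22 ± 0.030 in congenic pools and 19.58 ± 0.79 in wild-type pools (SD, n = 2 each), a difference of 0.64 ± 0.33 (SE), or 1.56-fold (95% interval -0.18 to 1.46 on the log2 scale; limma adjusted p = 0.4076). The wild-type pools lay 1.12 log2 apart, a wider gap than in 98.6% of compared probes, while the congenic pools lay 0.043 apart. The size of the difference therefore turned on 1 array. Without wild-type pool 1 it was 0.078, and without wild-type pool 2 it was 1.20. Each of these 2 fits kept 1 wild-type pool. The 1.12 log2 gap between the wild-type pools therefore does not enter their errors, and no error or p is given for them.

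Pga5, the pepsinogen that could be measured, had the smallest difference. It read 14.69 and 14.46 in congenic pools 1 and 2, against 14.39 and 14.27 in wild-type pools 1 and 2. The strains did not overlap, but congenic pool 2 and wild-type pool 1 were 0.063 log2 apart, less than the 0.23 between the congenic pools. The difference was 0.24 ± 0.11 (SE), or 1.18-fold (95% interval -0.023 to 0.50; limma adjusted p = 0.3478). Leaving out single pools moved it between 0.12 and 0.35, and the value of 0.12 was that without congenic pool 1.

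Rnase1 had the strongest strain difference relative to its error. Its signal was 16.95 and 17.17 in congenic pools 1 and 2, against 16.34 and 16.57 in wild-type pools 1 and 2. The pools of each strain lay 0.22 apart, and the nearest pools of different strains lay 0.39 apart. The mean was 17.06 ± 0.16 in congenic pools and 16.46 ± 0.16 in wild-type pools (SD, n = 2 each). The difference was 0.61 ± 0.11 (SE), or 1.53-fold (95% interval 0.33 to 0.88), with an unadjusted p of 0.001649 that ranked 163rd of the 13475 probes and an adjusted p of 0.1342 in limma, so it did not pass. It lay between 0.50 and 0.72 when any single pool was left out.

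Bhlha15, the transcription factor, had a smaller difference and tight pools. It read 13.67 and 13.78 in congenic pools 1 and 2, against 13.40 and 13.47 in wild-type pools 1 and 2. Both congenic pools were higher, with 0.21 log2 between the nearest pools of different strains and 0.11 and 0.070 within the congenic and the wild-type pools. The difference was 0.29 ± 0.094 (SE), or 1.23-fold (95% interval 0.066 to 0.52; limma adjusted p = 0.2445), and it lay between 0.24 and 0.35 with single pools left out.

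**Figure D2:**
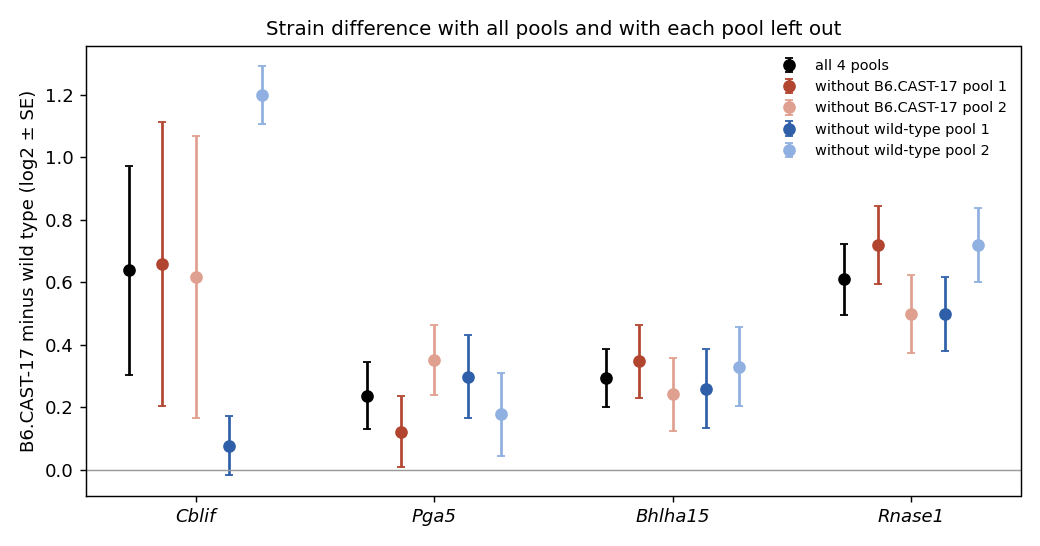
Difference between B6.CAST-17 and wild-type stomachs (log2, points) with its limma standard error (bars) for the 4 genes compared, with all 4 pools (black) and with each pool left out in turn (colours). Where a pool is left out, its strain keeps 1 pool, so the coloured bars hold no spread between that strain's pools. Pga5 (0.12 to 0.35), Bhlha15 (0.24 to 0.35) and Rnase1 (0.50 to 0.72) stay above 0 in each setting, and Cblif runs from 0.078 without wild-type pool 1 to 1.20 without wild-type pool 2.

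Cpa6, the metallocarboxypeptidase, was dim and incompletely measured. It read 9.35 and 11.14 in congenic pools 1 and 2 and 9.53 in wild-type pool 2, with a blank in wild-type pool 1. Congenic pool 2 alone was high, and the other congenic pool lay below the wild-type value. The congenic pools differed by 1.79 log2, more than in 99.9% of compared probes. Those probes exclude Cpa6 and are mostly brighter, with a median of 12.82 in both congenic pools. A blank was common at the level of Cpa6. Where the other 3 arrays averaged within 0.5 log2 of 10, 22.1% of 1251 probes were blank in wild-type pool 1. In congenic pool 1 it was 12.7% of 1138. In a limma fit that admitted probes with at most 1 blank, and so used 1 wild-type pool for Cpa6, the difference was 0.72 ± 0.77 (95% interval -1.27 to 2.71; adjusted p = 0.6944). It was -0.17 without congenic pool 2.

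Since the Cblif difference moved with wild-type pool 1, that array was described more widely. On that array Cblif ranked 187th from the top, against 31st and 28th in congenic pools 1 and 2 and 35th in wild-type pool 2. Cblif in wild-type pool 1 lay 1.17 log2 below the mean of the other 3 pools. In 0.757% of compared probes this array lay further below the others, and the same measure was -0.55 for Rnase1, -0.24 for Bhlha15 and -0.078 for Pga5. As 2 of the other 3 pools are congenic, the measure also takes in any strain difference. The wild-type pools lay 1.12 log2 apart for Cblif and 0.22 apart for Rnase1. Among the 110 brightest probes, 106 were within 0.5 log2 of the others in wild-type pool 1, and 2 were more than 1 log2 lower, Cblif and Ptgr1, an enzyme that inactivates prostaglandins and leukotrienes. Cblif was also 1 of 74 probes on which wild-type pool 1 lay more than 1 log2 below each other pool while those lay within 0.5 of one another. The corresponding numbers were 14 and 5 probes for congenic pools 1 and 2 and 5 for wild-type pool 2. With wild-type pool 1 left out, the median difference of the 4 genes was 0.28, against 0.45 with all pools. It was 0.50 and 0.43 without congenic pools 1 and 2, and 0.52 without wild-type pool 2. Leaving out wild-type pool 1 moved Cblif from 0.64 to 0.078 and Rnase1 from 0.61 to 0.50. Bhlha15 moved from 0.29 to 0.26, and Pga5 rose from 0.24 to 0.30.

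**Figure D3:**
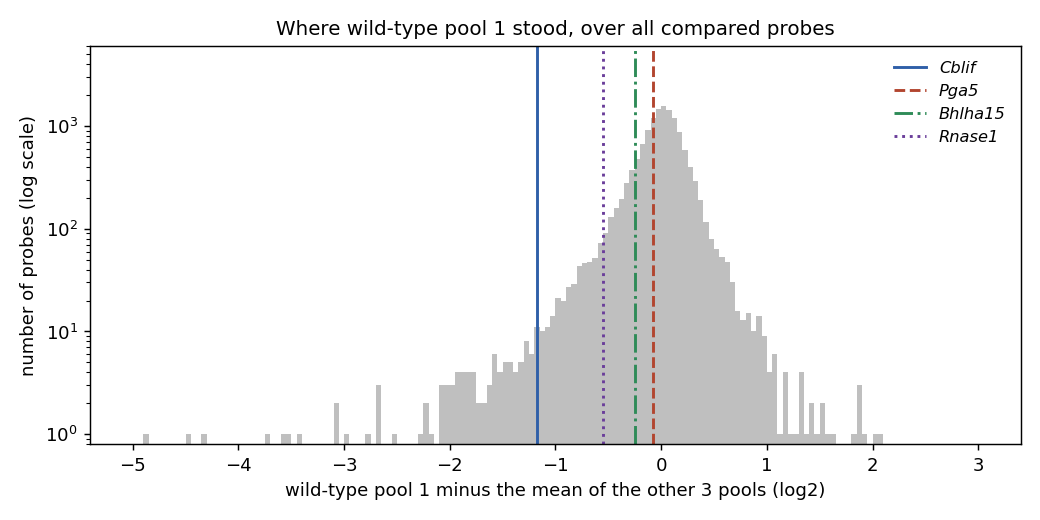
Number of compared probes (vertical axis, log scale) by the signal of wild-type pool 1 minus the mean of the other 3 pools (horizontal axis, log2), with a vertical line for each of the 4 genes. Values run from -4.86 to 2.06. As 2 of the other 3 pools are congenic, a strain difference also moves them. Cblif lies far in the lower tail at -1.17, Rnase1 at -0.55, and Bhlha15 and Pga5 near the bulk.

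The genes whose profile over the 4 arrays was most like that of each gene were found by the distance between log2 values centred on each probe's mean. Cblif was nearest to Cs, the mitochondrial citrate synthase, with a distance of 0.071 log2. Cs read 17.70 and 17.68 in congenic pools 1 and 2, against 16.45 and 17.56 in wild-type pools 1 and 2, again with wild-type pool 1 alone low. Atic, an enzyme of purine synthesis, and Adamdec1, a secreted metalloprotease, followed at 0.087 and 0.093. Rnase1 was nearest to Nemf, Retnlg and Jak1 (0.041 to 0.077), Bhlha15 to Cir1, Fbln5 and Hoxa3 (0.024 to 0.033), and Pga5 to Arcn1, Ifi47 and Alox8 (0.0097 to 0.030). Likeness over 4 points among many probes is a description only, and none of these 12 genes was in the chief cell, pancreas or secretory lists.

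Other genes of chief cells did not share one direction. Of a list of 22, 10 were measured on all arrays, and 0 rose and 0 fell in limma. An unadjusted p under 0.05 was found for 4 of 10. Over all compared probes that share was 15.8%, which applies beside each list below. Their differences were positive for 4 of 10, with a median of -0.068. Gpx3, a secreted glutathione peroxidase, read 13.81 and 13.53 in congenic pools 1 and 2, against 14.45 and 14.39 in wild-type pools 1 and 2 (-0.75 ± 0.12; limma adjusted p = 0.09007). Under limma's robust variance model Gpx3 passed as lower, the opposite direction to the 4 genes. Tfcp2l1, a transcription factor, differed by 0.72 ± 0.22, and Lgr5, a receptor on stem cells and on a subset of chief cells, by 0.30 ± 0.12. Chia1, an acidic chitinase abundant in the mouse stomach, differed by 0.090 ± 0.085. Rab3d differed by -0.38 ± 0.094 and Rab27b by 0.15, and both are also in the granule machinery list below. The remaining genes of the 10, Aqp5, Clps, Lrig1 and Ctss, differed by -0.11, -0.086, -0.069 and -0.068. Clps is also in the pancreas list and Aqp5 in the mucous neck and pit list. The gastric lipase gene Lipf was blank on all 4 arrays.

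The machinery that builds and releases zymogen granules likewise had no gene past the threshold in limma (0 of 21 measured). An unadjusted p under 0.05 was found for 9 of 21, beside 15.8% of all compared probes. Of the 21 differences 11 were positive, with a median of 0.0097. The 3 smallest p-values belonged to genes that read lower in both congenic pools. Rab3d, a small GTPase of zymogen granules and in mice a target of Bhlha15, read 13.42 and 13.30 in congenic pools 1 and 2, against 13.73 and 13.76 in wild-type pools 1 and 2 (-0.38 ± 0.094; limma adjusted p = 0.1854). Its difference was thus opposite in sign to that of Bhlha15. Sytl1, a synaptotagmin-like protein of vesicle docking, differed by -0.38 ± 0.076, and Creb3l1, a membrane-bound transcription factor of secretory cells, by -0.44 ± 0.10. Xbp1, which drives the secretory apparatus and lies upstream of Bhlha15 in mouse zymogen cells, differed by 0.13 ± 0.13.

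Receptors and signal transducers of the hormones and nerves that trigger secretion gave 0 of 8 past the threshold in limma and 1 at an unadjusted p under 0.05. That gene was Sstr2, the somatostatin receptor that restrains gastric secretion, at -0.43 ± 0.11. Ptger3, a prostaglandin E receptor, differed by 0.36 ± 0.20 and Gna11, a G protein subunit, by -0.16 ± 0.11. The list's median was 0.056.

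Downstream of intrinsic factor, the genes of cobalamin uptake, transport and use gave 0 of 9 past the threshold in limma and 1 at an unadjusted p under 0.05, with a median of -0.12. Mmut, the mitochondrial mutase that uses cobalamin as cofactor, was the lone gene with a small p. It read 16.22 and 16.48 in congenic pools 1 and 2, against 15.83 and 15.81 in wild-type pools 1 and 2 (0.52 ± 0.10; limma adjusted p = 0.1442). Cd320, the receptor that takes cobalamin into cells, differed by -0.24 ± 0.11, and Abcd4, a lysosomal transporter of cobalamin, by -0.18 ± 0.093. Amn, part of the ileal receptor for intrinsic factor, was blank on all 4 arrays.

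Relatives by protein family did not share one direction. Of the aspartic proteases related to pepsinogen, Ctse, which is abundant in gastric epithelium, read 20.15 and 20.21 in congenic pools 1 and 2, against 20.04 and 20.13 in wild-type pools 1 and 2 (0.098 ± 0.086). Ctsd, the lysosomal cathepsin D, differed by -0.18 ± 0.071. Of the ribonucleases related to Rnase1, with their inhibitor Rnh1, 0 of 6 passed in limma. An unadjusted p under 0.05 was reached by 2, Rnase4 (0.25 ± 0.078) and the angiogenin gene Ang (-0.29 ± 0.098), which are close neighbours on chromosome 14 and differed in opposite directions. Of the carboxypeptidases and related proteins, 2 of 9 rose in limma, Cpa1 and Cpb1, and both are pancreatic enzymes. Without congenic pool 1 or congenic pool 2, 1 of 9 rose. Cpxm2, a family member thought to lack enzyme activity, differed by 1.11 ± 0.17 (limma adjusted p = 0.09007).

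Rnase1 and Bhlha15 are also expressed by pancreatic acinar cells, whose markers moved in these samples. Of 35 listed pancreas genes 17 were measured on all arrays, and 10 rose, 0 fell and 7 did not pass, with a median of 0.99. Leaving out congenic pool 1 gave 5 in place of 10, and leaving out congenic pool 2, or not modelling the variance trend, gave 6. Cela2a, an elastase, read 17.05 and 16.93 in congenic pools 1 and 2, against 13.72 and 13.80 in wild-type pools 1 and 2, a 9.40-fold rise (3.23 ± 0.081; limma adjusted p = 0.0002302). Amy2a5, a pancreatic amylase, rose 2.21-fold and Prss3, a trypsinogen, 1.66-fold, though both values are uncertain because amylase and trypsinogen genes exist in near-identical copies. The summed signal of the 17 genes, as log2 of the sum, was 21.42 and 21.39 in congenic pools 1 and 2, against 21.00 and 21.04 in wild-type pools 1 and 2. These sums weight bright probes most: Pla2g1b and Clps, neither past the threshold, made up 67.0% and 68.2% of the sum in congenic pools 1 and 2, against 78.4% and 78.2% in wild-type pools 1 and 2. Without them the log2 sum was 19.82 and 19.73 in congenic pools 1 and 2, against 18.79 and 18.84 in wild-type pools 1 and 2. The list was not uniform. The lipase-related Pnliprp2 differed by -0.22 ± 0.11 and the colipase gene Clps by -0.086 ± 0.14. Among the acinar transcription factors, Rbpjl read 12.67 and 12.77 in congenic pools 1 and 2, against 12.61 and 12.62 in wild-type pools 1 and 2 (0.11 ± 0.11; limma adjusted p = 0.6514). Ptf1a had a value on 3 arrays, and Nr5a2 was blank on all 4. Rnase1 was 1.53-fold and Bhlha15 1.23-fold higher in the same pools, neither past the threshold, and the part of pancreatic transcripts in their signal was not tested.

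**Figure D4:**
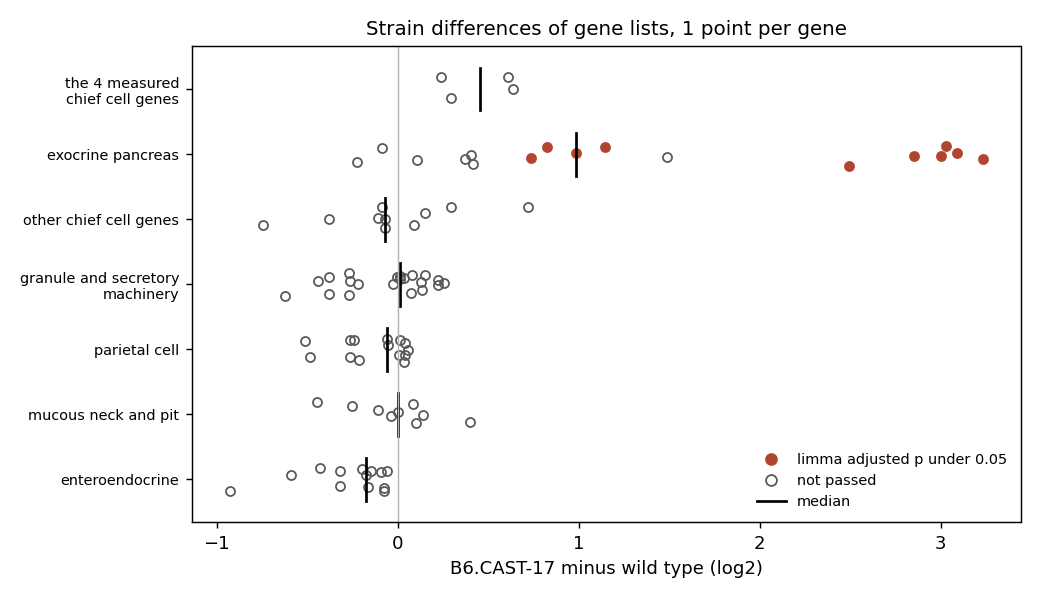
Difference between B6.CAST-17 and wild-type stomachs (horizontal axis, log2) for each measured gene of 7 groups, with filled points for a limma adjusted p under 0.05, open points otherwise and a black line at each median. A gene that is in several of the lists is drawn in each. The 4 chief cell genes lie between 0.24 and 0.64, 10 of 17 pancreas genes are filled and all to the right, and no gene of the other 5 groups passed.

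None of the listed markers of parietal, mucous neck and pit, enteroendocrine, squamous or small intestinal cells passed the test with all pools. Over all compared probes, 15.8% had an unadjusted p under 0.05 in either direction. Without wild-type pool 1, the small intestinal gene Dmbt1 passed as higher. For parietal cells, which secrete acid, 0 of 14 passed in limma, with 4 at an unadjusted p under 0.05 and a median of -0.057. The smallest p-values belonged to Slc4a2, the basolateral anion exchanger (-0.49 ± 0.079), and the chromosome 17 gene Ezr (-0.51 ± 0.097). For mucous neck and pit cells 0 of 9 passed in limma and 1, the mucin glycosyltransferase Gcnt3 (0.40 ± 0.16), had an unadjusted p under 0.05. Of the enteroendocrine genes 0 of 13 passed in limma, with 4 at an unadjusted p under 0.05, and all 13 differences were negative with a median of -0.17. Gast, which encodes the hormone gastrin, read 17.99 and 18.09 in congenic pools 1 and 2, against 18.52 and 18.74 in wild-type pools 1 and 2 (-0.59 ± 0.099; limma adjusted p = 0.113). Of forestomach squamous genes 0 of 11 passed in limma, with 4 at an unadjusted p under 0.05 and a median of -0.17. Of small intestinal genes 0 of 8 passed in limma, with 5 at an unadjusted p under 0.05 and a median of 0.15, and Fabp1, a fatty acid-binding protein, differed by 0.57 ± 0.091.

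The surroundings of the genes on their chromosomes were examined by gene order. Pga5 and Cblif lie near each other on chromosome 19, at positions 122 and 136 of 272 measured genes. Of the 13 measured genes between them 0 rose and 1 fell in limma, Cd5, a T cell surface protein, which was named because it was the only call. Cd5 read 16.53 and 16.66 in congenic pools 1 and 2, against 17.95 and 17.73 in wild-type pools 1 and 2 (-1.25 ± 0.10; limma adjusted p = 0.009071). Of the 13 differences 4 were above 0, and their median was -0.14. On chromosome 17, the measured genes on either side of the unmeasured Pgc were Frs3, a growth factor receptor adaptor (0.30 ± 0.16), and Tfeb, a transcription factor of lysosomal genes (-0.11 ± 0.21). In both, values of the strains overlapped. Of 27 listed genes around Pgc 14 were measured, and 0 passed in limma, with 4 at an unadjusted p under 0.05 and a median of -0.087.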

How the data were processed

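Per the labels' protocols, stomach RNA was isolated with TRIzol and labelled with digoxigenin by in vitro transcription of 1 microgram, using a chemiluminescent kit of Applied Biosystems. The values deposited by the authors are log2 signals, 1 per probe and array. How the authors normalized them and when a cell was left blank is not stated in the labels. The log base was inferred from the range of values (6.73 to 21.2), and all 4 arrays share the maximum, as quantile normalization would leave them. No further normalization was applied, since array medians over the compared probes lay between 12.819 and 12.824.

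Groups and pool numbers came from the sample titles, and nothing in the labels pairs equal numbers. Of 33012 probes 14411 had 1 symbol, 247 several and 18354 none. The strains were compared over the 13475 probes with a value on all arrays with limma 3.58.1 (R 4.3.3). Variances were moderated along the mean-variance trend, with 2 residual degrees of freedom and a prior worth 3.97. Tests were two-sided, and p-values were adjusted by Benjamini-Hochberg over all these probes, with a threshold of 0.05. The code was tested on simulated data. Where a gene had several probes, the brightest was used. Gene order and promoters came from RefSeq tables (GRCm38.p6), with no coordinates assigned to probes. The members and lists were chosen with earlier results of these data known. In each list, genes past the threshold and the 3 with the smallest p were eligible for naming, along with the 3 genes nearest in profile to each member and Pgc's measured neighbours. Ptgr1, Cd5, Lgr5, Chia1, Rab27b, Lrig1, Ctss, Xbp1, Lipf, Amn, Pla2g1b, Pnliprp2, Clps, Rbpjl, Ptf1a, Nr5a2 and Usp49 were named outside that rule, after their values were seen. Aqp5 was named among the chief cell genes in the same way. Figures were drawn with matplotlib 3.10.9.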

Additional observations from a re-analysis of the deposited data

How the results depend on the processing

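The differences of Cblif, Pga5, Bhlha15 and Rnase1 were positive under quantile normalization, median centring, a filter on dim probes, admitting probes with 1 blank, other variance models, array weights (which cannot tell the 2 pools of a strain apart), the replicate block and each left-out pool. Under every setting that kept all 4 pools, 0 of the 4 genes passed in limma. Each fit without a pool leaves 1 pool in that strain, so no p of the 4 genes is given for those fits. With single pools left out Cblif ran from 0.078 to 1.20, Pga5 from 0.12 to 0.35, Bhlha15 from 0.24 to 0.35, Rnase1 from 0.50 to 0.72 and Cpa6, as a plain difference of means, from -0.17 to 1.61. Under the alternatives that kept all 4 pools, limma adjusted p-values lay between 0.0844 and 0.2973 for Rnase1 and between 0.1847 and 0.354 for Bhlha15. Over all probes the count of 64 became 20 without the variance trend (13 higher and 7 lower), and ran from 15 to 168 with single pools left out. With the replicate block it was 35, and equal pool numbers did not deviate together (r = -0.064 across probes), so the numbers were not taken as a pairing. Under the block Cblif had an adjusted p of 0.389, Pga5 0.3709, Bhlha15 0.354 and Rnase1 0.1084, with unchanged differences. The cause of these moves was not tested. Quantile normalization, the dim-probe filter and the variance settings gave no separate value for Cpa6, which is outside the probes compared, and with wild-type pool 2 left out it had no wild-type value. Signal over background is unknown here and limits dim probes such as Cpa6.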

Other observations

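Wild-type pool 1 alone was low on 74 of the 13475 compared probes. Of the 74, 49 had a single gene symbol, against 7907 of all compared probes. These 49 held 1 of the 4 chief cell genes compared, Cblif. They also held 1 gene of all other lists, Usp49, which was listed as a neighbour of Pgc. The number to be met from the size of the lists alone was not worked out. Ptgr1 read 20.17 and 19.64 in congenic pools 1 and 2, against 18.63 and 19.79 in wild-type pools 1 and 2, so it was low in the same array as Cblif.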
